A study of Mus musculus with 65 samples.

Results

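NKX6.1-positive p2 progenitors and their NKX6.1-negative p0-1 neighbors were sorted from mouse embryonic stem (ES) cell cultures that had all received 10 nM SAG, a synthetic agonist of Smoothened that switches on the Sonic hedgehog (Shh) pathway. At this matched concentration the main test called 3 of 13964 genes different in RNA, and 2 alternative tests called 1 and 430. Moderate changes in many genes could not be detected at this replication. p2 libraries held more Nkx6-1, Hes6 and Hes2 RNA, which are the 3 called genes. Only at a looser adjusted p below 0.05, they held more of the Notch ligands Dll1, Dll3 and Dll4. At that looser threshold they held less RNA of the p0 factor Dbx1 and of Prdm16. Of 12 fits that each left out 1 library, Dll4 passed it in 9, Dll3 in 8, Dbx1 in 5, Dll1 in 4 and Prdm16 in 3. The comparison used 12 of the 65 libraries of the series, 6 of p2 and 6 of p0-1 cells, with 3 libraries per cell type on day 5 and 3 on day 6 of differentiation. The libraries were taken by their labelled cell type, SAG concentration and day, and not by a measured value. The cell types were compared within each day and the differences averaged over the days.

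In the neural tube, Shh spreads from the floor plate and notochord, and the progressively more dorsal position of a progenitor goes with lower exposure to it. The p2 domain is defined by NKX6.1 with PAX6 and IRX3 and forms V2 interneurons, while the p0 and p1 domains lie dorsal to it, lack NKX6.1, and form V0 and V1 interneurons. NKX6.1 and the DBX homeodomain factors act as repressors that keep these neighboring domains apart.

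All groups came from HM1, a mouse ES cell line, without a mutation or transgene being named. The cells first became neuromesodermal progenitors and then received 100 nM retinoic acid together with SAG from day 3. Cells were fixed, stained inside the cell and gated on SOX2, so both populations were progenitors by protein. The p2 gate required PAX6 and NKX6.1, and the p0-1 gate required PAX6 without NKX6.1, so p0 and p1 cells were not separated from each other. Replicates of the accessibility data were described as independent differentiations. Whether RNA libraries of days 5 and 6 with the same replicate number came from a shared differentiation was not stated. The main test treated all libraries as independent. Its p-values measure the spread between libraries of the same day, SAG concentration and cell type, pooled over all 65 libraries. For comparison, 6 p2 libraries from 100 nM SAG and 6 p0-1 libraries from 0 nM SAG on the same days were used, none of which entered the 10 nM comparison. In these bulk samples, fewer cells of a type and less RNA per cell cannot be told apart.

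The 12 libraries held between 7808243 and 12383601 counted reads and between 11829 and 13788 detected genes. Neither measure differed between the cell types beyond the spread within a day (p = 0.2 and p = 0.83, exact permutation test within days, two-sided, for which 0.005 is the smallest possible p). The correlation of log2 values over the tested genes had a median of 0.779 between p2 libraries of the same day (6 pairs), of 0.76 between p0-1 libraries of the same day (6 pairs) and of 0.766 between cell types on the same day (18 pairs), so these medians lay close together. Values below are normalized reads, that is, read counts divided by the size factor of the library. A count of 3 reads, the limit that a count of 0 allows, equals on average 3.33 normalized reads in p2 and 3.02 in p0-1 libraries, and covers counting error only.

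Of 13964 genes tested, 3 rose in p2 and 0 fell at an adjusted p below 0.01 and a change above 2-fold (0.0215% of the genes tested higher, 0% lower; limma on log2 of normalized reads plus 1 with Benjamini-Hochberg adjustment, as for all adjusted p-values below). At an unadjusted p below 0.05, 381 genes were higher (2.73%) and 279 lower (2%), 4.73% in all. edgeR's quasi-likelihood test on recovered reads called 1 gene and DESeq2 called 430, 238 higher and 192 lower. With an adjusted p below 0.05 and no requirement on fold, 12 genes were higher in p2 (0.0859%) and 2 were lower (0.0143%). These 14 genes, 0.1% of those tested, are named below, and any called only by this looser rule is said to have passed 0.05. The median standard error of a log2 difference was 0.83, so moderate changes in many genes could not be detected at this replication. The 3 genes that rose depended on the estimate of spread that all 65 libraries share. When the 12 libraries were fitted alone, adjusted p was 0.116 for Hes6, 0.355 for Nkx6-1 and 0.394 for Hes2, and 3 other genes were called (Ephx2 lower, Miat and Pcdhb15 higher, named after their values were seen).

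**Figure D1:**
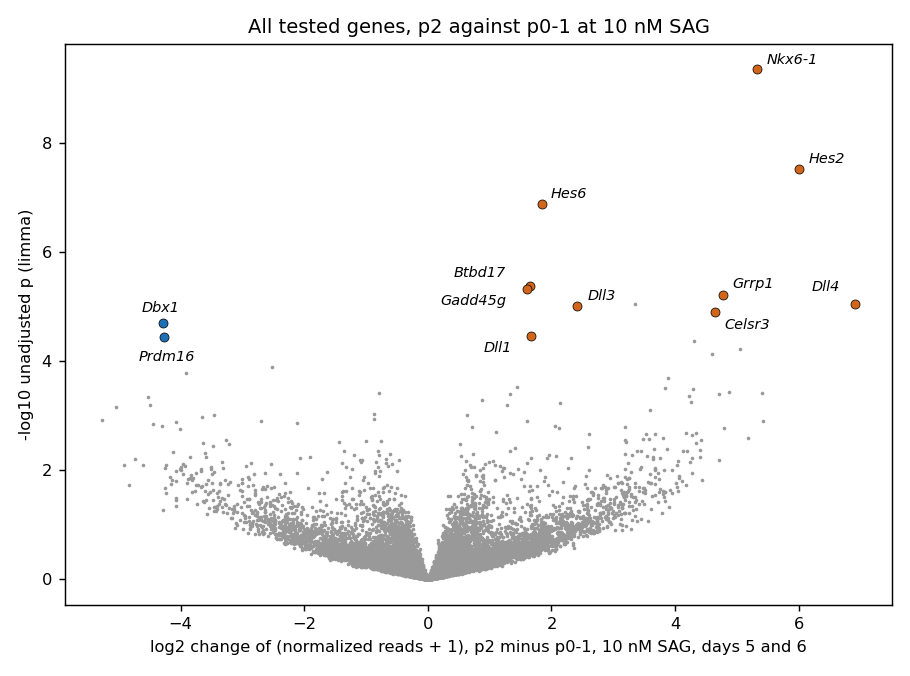
Each gray point is 1 of 13964 tested genes, with the log2 change of p2 against p0-1 at 10 nM SAG on the x axis and minus log10 of the unadjusted limma p on the y axis. Colored points are labelled genes at an adjusted p below 0.05. Nkx6-1, at a log2 change of 5.33, stands highest, Dll4 lies farthest to the right at 6.91, and Dbx1 and Prdm16 lie on the left at -4.29 and -4.27.

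Nkx6-1 encodes the homeodomain factor whose protein set the gate, so its RNA is a check of the sort and not a finding. Nkx6-1 lies on chromosome 5 at 101659197 to 101664711 on the minus strand (mm10). p2 libraries held 350, 134 and 269 normalized reads of Nkx6-1 on day 5, and 499, 181 and 483 on day 6. p0-1 libraries held 67.5, 1.09 and 6.09 on day 5, and 2.27, 38.7 and 0 on day 6. Every p2 library lay above every p0-1 library, and the p0-1 libraries themselves ranged from no reads to a low but clear level. The log2 change of Nkx6-1 was 5.33 (SE 0.68, adjusted p = 6.31e-06), or 40.3-fold on the scale of reads plus 1. The ratio of the group means was 16.6, the log2 change was 4.08 by edgeR and by DESeq2 and 3.83 with a pseudocount of 10, and it was 6.02 without p0-1 day 5 replicate 1, 6.07 without p0-1 day 6 replicate 2 and 4.75 without p0-1 day 6 replicate 3. Of the other stained proteins, only Tubb3 also gave RNA without overlap over both days, and by a small margin. Its lowest p2 library held 527.3 and its highest p0-1 library 526.2 normalized reads (unadjusted p = 0.0842, limma). Olig2, given below, overlapped between the cell types. Pax6, shared by both gates, had 4723 ± 587 normalized reads in p2 and 4221 ± 1444 in p0-1 (SD, n = 6), with a 95% confidence interval of the log2 difference from -0.87 to 1.31. Sox2 had 1783 ± 557 in p2 and 2116 ± 592 in p0-1 (interval -0.84 to 0.31). Nkx2-2, the p3 factor, was at or near 0 in all 12 libraries.

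Dbx1, the homeodomain factor that marks p0 progenitors, showed the reverse pattern. Dbx1 lies on chromosome 7 at 49631499 to 49636835 on the minus strand. p0-1 libraries held 1843, 1905 and 917 normalized reads of Dbx1 on day 5, and 2750, 2976 and 1636 on day 6. p2 libraries held 323, 430 and 134 on day 5, and 148, 134 and 1.06 on day 6. The cell types did not overlap, and Dbx1 RNA was present in 5 of 6 p2 libraries at over 100 normalized reads. The log2 change was -4.29 (SE 0.90) and passed 0.05 (adjusted p = 0.0253). It passed in 5 of the 12 fits that each left out 1 library, and was -3.27 (adjusted p = 0.268) without p2 day 6 replicate 3. Across all genes tested, 10 had every p2 library below every p0-1 library (0.0716%) and 19 had every p2 library above (0.136%). The change of Dbx1 was -2.47 on day 5 and -6.10 on day 6 on the log2 scale, and the difference between the days had an unadjusted p of 0.0508 (adjusted p = 1, limma).

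Prdm16, a zinc finger transcriptional regulator of neural progenitors, was the other gene lower in p2 at 0.05. Prdm16 was at 0 in 5 of the 6 p2 libraries and at 2.32 normalized reads in the other. p0-1 libraries held 186, 1.09 and 33.5 on day 5, and 47.8, 260 and 0 on day 6, so the cell types overlapped at the low end. Set against the limit that a count of 0 allows, Prdm16 was at least 26.4-fold lower in p2 (adjusted p = 0.0394 for the fitted difference). The bound was 16.1-fold without p0-1 day 6 replicate 2, and the fitted difference passed 0.05 in 3 of 12 fits that left out 1 library and in neither count test (adjusted p = 0.65 by edgeR and 0.314 by DESeq2). The gene lies on chromosome 4 at 154316125 to 154636873 on the minus strand and overlaps 5930403L14Rik on the same strand and Gm13133 on the opposite strand. Counting by strand was not stated, so reads of these genes cannot be assigned with certainty.

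In the whole group of factors of p0, p1 and dorsal progenitors, Dbx1 and Prdm16 included, 13 of 25 genes passed the filter on low values. This group and those below were chosen with earlier results of these data known, so their shares beside all genes are descriptions only. Of these, 4 had an unadjusted p below 0.05 and a lower level in p2 (2% of all genes tested did), namely Dbx1, Prdm16, Prdm13 and Prdm12, and 0 had a higher one. The median log2 change of the 13 was -0.51, against 0.02 over all genes tested. Prdm13, a zinc finger factor of dorsal progenitors, was at 0 in all 6 p2 libraries. It held 30.5, 153 and 0 normalized reads in the day 5 p0-1 libraries and 0, 135 and 17.1 in those of day 6 (unadjusted p = 0.000163, adjusted p = 0.126, limma). Prdm12, which marks p1 progenitors, had 143 ± 175 normalized reads in p2 and 450 ± 392 in p0-1 (SD, n = 6; unadjusted p = 0.0228, adjusted p = 0.951, limma). Dbx2, a factor of p0 and p1, was variable in both cell types, at 116 ± 120 in p2 and 132 ± 143 in p0-1. The 95% confidence interval of its log2 difference ran from -3.67 to 2.66 and so included large changes in either direction.

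Ventral factors other than Nkx6-1 did not pass 0.05. Of the 10 genes of the ventral group, with Nkx6-1 counted, 3 had an unadjusted p below 0.05 and the higher level in p2 (2.73% of all genes tested did), namely Nkx6-1, Olig2 and Foxn4, and the median log2 change was 0.70. Olig2, the basic helix-loop-helix factor of the adjacent pMN domain, held 0, 18.3 and 134 normalized reads in p2 on day 5, and 162, 87.1 and 118 on day 6. In p0-1 it was at 103 in a single day 5 library and at 0 in the other 5 (log2 change 4.23, SE 1.12, unadjusted p = 0.00043, adjusted p = 0.214, limma). Thus 5 of 6 p2 libraries contained some RNA of a pMN factor, and 1 of 6 p0-1 libraries did. Foxn4, a forkhead factor of late p2 progenitors, had 112 ± 125 in p2 and 14.3 ± 34.6 in p0-1 (adjusted p = 0.576, limma). Nkx6-2, a homeodomain factor related to Nkx6-1, had 126 ± 125 and 86 ± 106 (adjusted p = 1, limma). Among 26 tested factors shared by neural progenitors, the median log2 change was 0.13. At an unadjusted p below 0.05, 2 were higher in p2 and 0 lower (2.73% and 2% of all genes tested). Irx3, common to p2 and p1, had 1881 ± 519 in p2 and 2202 ± 256 in p0-1.

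**Figure D2:**
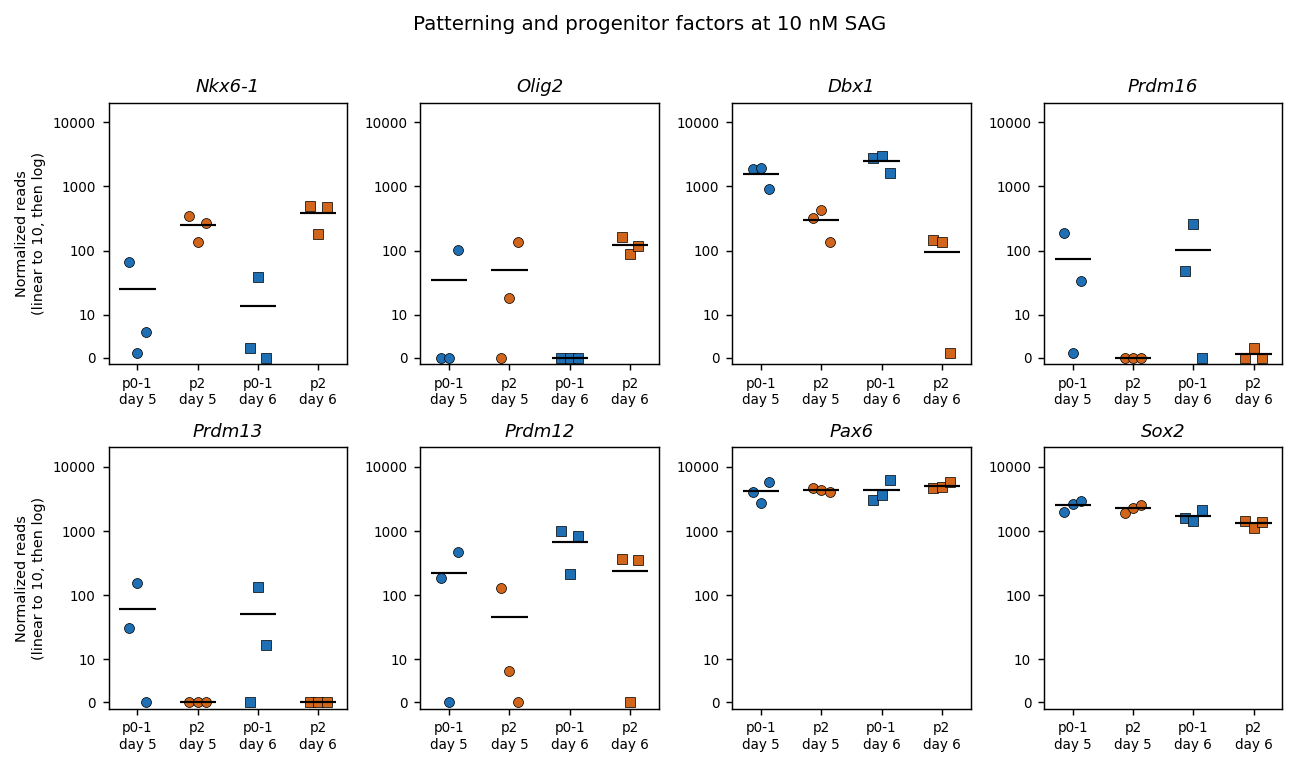
Normalized reads of 8 patterning and progenitor genes are shown for each library at 10 nM SAG, on an axis that is linear to 10 and logarithmic above. Circles are day 5, squares are day 6, and the short lines are means of 3 libraries. Nkx6-1 and Dbx1 separate the cell types in opposite directions, while Pax6 and Sox2 overlap.

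Factors of the neurons that these progenitors form were also compared. In the V2 group, 7 of 11 genes were tested, 3 had an unadjusted p below 0.05 with the higher level in p2, against 2.73% of all genes tested, and the median log2 change was 2.72. These were Foxn4, Vsx1 and Gata2. Foxn4, a progenitor factor, was already counted in the ventral group above, so the counts of these groups are not separate. Vsx1, a homeodomain factor of early V2 cells, had 107 ± 110 normalized reads in p2 and 3.19 ± 3.26 in p0-1 (SD, n = 6; unadjusted p = 0.00311, adjusted p = 0.588, limma). Its p2 values were uneven, at 227, 0 and 27.6 on day 5, and 228, 1.16 and 159 on day 6. Gata2, a V2b factor, was at 43 ± 52.8 in p2 and at 0 in all p0-1 libraries (adjusted p = 1, limma). For V1, V0 and dI6 neurons only 5 of 15 genes passed the filter, 0 had an unadjusted p below 0.05 (limma) and the median was 0. Of 6 tested motor neuron and V3 genes, 3 had an unadjusted p below 0.05 with the higher level in p2, among them Isl1 at 41.9 ± 62.1 against 0.126 ± 0.31 (adjusted p = 0.928, limma). None of these neuronal factors passed 0.05 after adjustment.

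The Delta ligands were the other group with members past 0.05. In neural progenitors, a cell that starts to differentiate displays Delta ligands, which activate Notch receptors on its neighbors and keep them as progenitors through HES repressors. Dll1 lies on chromosome 17 at 15367354 to 15375823 on the minus strand, Dll3 on chromosome 7 at 28293555 to 28301785 on the minus strand, and Dll4 on chromosome 2 at 119325784 to 119335666 on the plus strand. Hes6, which rose as well, lies on chromosome 1 at 91411483 to 91414038 on the minus strand. Because proneural factors of the basic helix-loop-helix family bind E-boxes, the 250 bases before the annotated start of these 4 genes are given, from RefSeq on GRCm38.p6 (the assembly that mm10 names), 5′ to 3′ on the strand of the gene. Capitals mark matches to the E-box letters CANNTG, which read the same way on both strands.
Dll1: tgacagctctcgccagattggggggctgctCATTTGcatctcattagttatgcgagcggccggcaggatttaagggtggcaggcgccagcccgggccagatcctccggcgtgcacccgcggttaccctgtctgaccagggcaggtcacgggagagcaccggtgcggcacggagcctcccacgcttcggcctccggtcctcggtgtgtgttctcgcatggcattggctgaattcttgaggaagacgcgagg
Dll3: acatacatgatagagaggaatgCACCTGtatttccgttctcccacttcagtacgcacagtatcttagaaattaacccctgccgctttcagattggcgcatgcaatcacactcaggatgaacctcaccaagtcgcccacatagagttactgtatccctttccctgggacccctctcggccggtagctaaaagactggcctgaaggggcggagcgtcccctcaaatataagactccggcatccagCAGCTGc
Dll4: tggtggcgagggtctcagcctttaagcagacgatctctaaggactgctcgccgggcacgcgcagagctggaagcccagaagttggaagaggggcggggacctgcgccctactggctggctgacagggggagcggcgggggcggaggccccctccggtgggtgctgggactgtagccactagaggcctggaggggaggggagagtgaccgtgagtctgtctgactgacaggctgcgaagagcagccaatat
Hes6: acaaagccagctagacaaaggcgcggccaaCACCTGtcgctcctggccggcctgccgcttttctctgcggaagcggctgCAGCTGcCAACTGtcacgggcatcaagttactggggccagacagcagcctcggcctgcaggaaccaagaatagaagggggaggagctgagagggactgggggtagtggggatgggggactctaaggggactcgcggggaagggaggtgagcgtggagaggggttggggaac
The stretches cover chr17:15375824-15376073 for Dll1, chr7:28301786-28302035 for Dll3, chr2:119325534-119325783 for Dll4 and chr1:91414039-91414288 for Hes6. Dll1 held 1 match, Dll3 held 2, Hes6 held 3 and Dll4 held 0. The letters CAGCTG, a form contained in CANNTG, occurred in the Dll3 stretch at 7 bases before the start and in the Hes6 stretch at 171 bases before it. Of 32841 promoter stretches of 250 bases in the RefSeq table, 66.2% held CANNTG and 13% held CAGCTG, so matches at this rate are common. A match is a description of the letters only.

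Dll1, a ligand that activates Notch between neighboring progenitors, held 2020, 3059 and 1417 normalized reads in p2 on day 5, and 5919, 5207 and 3671 on day 6. In p0-1 it held 1410, 683 and 438 on day 5, and 2064, 579 and 1889 on day 6. The cell types were apart within each day, although the lowest p2 library of day 5 was close to the highest p0-1 library of that day. Dll1 was 3.18-fold higher in p2 (log2 change 1.67, SE 0.36, adjusted p = 0.0394). It passed 0.05 in 4 of 12 fits that left out 1 library, with an adjusted p of up to 0.348 without p0-1 day 6 replicate 2.

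Dll3, a divergent Delta protein that acts inside the cell, held 4987, 2656 and 1260 in p2 on day 5, and 4435, 3237 and 3832 on day 6. In p0-1 it held 791, 38.2 and 279 on day 5, and 1864, 1254 and 1978 on day 6. On each day all p2 libraries were above all p0-1 libraries, and over the days they overlapped, since p0-1 values were higher on day 6. The log2 change was 2.41 (SE 0.49, adjusted p = 0.0149), with 3.64 on day 5 and 1.19 on day 6. It passed 0.05 in 8 of 12 fits that left out 1 library, and was 1.82 (adjusted p = 0.166) without p0-1 day 5 replicate 2.

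Dll4, a ligand best known from blood vessels that is also made by differentiating V2 progenitors, held 1354, 879 and 323 in p2 on day 5, and 444, 1035 and 440 on day 6. It was at 0 in 4 of the 6 p0-1 libraries, and at 285 and 89.9 in the remaining pair, both of day 6. No p2 library overlapped a p0-1 library (log2 change 6.91, SE 1.39, adjusted p = 0.0149). The ratio of the group means of Dll4 was 11.9, and the log2 change passed 0.05 in 9 of 12 fits that left out 1 library, with 5.69 (adjusted p = 0.153) without p0-1 day 6 replicate 2. Dll4 overlaps Gm14207 on the opposite strand, for which reads cannot be told apart without strand. Endothelial markers were at 10.6 to 210 summed normalized reads in p2 (median 93.3) and at 0 to 78.5 in p0-1 (median 2.18), with Kdr at an unadjusted p of 0.0189 (adjusted p = 0.921, limma) as 1 of the 2 markers tested. Their part in the Dll4 result was not tested.

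Hes6, a basic helix-loop-helix factor that is expressed in cells entering neuronal differentiation and opposes HES1, rose by a like factor on both days. p2 libraries held 2174, 1363 and 1738 normalized reads on day 5, and 3045, 2029 and 2433 on day 6. p0-1 libraries held 337, 912 and 273 on day 5, and 610, 754 and 925 on day 6. The groups did not overlap on either day, and the log2 change was 1.98 on day 5 and 1.71 on day 6. Hes6 was 3.59-fold higher in p2 (log2 change 1.84, SE 0.30, adjusted p = 0.000607) and was the only gene that edgeR's quasi-likelihood test on the recovered reads also called (adjusted p = 0.00708, against 0.0119 for Nkx6-1 and 0.372 for Hes2).

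Hes2, a less studied member of the same repressor family, was present above single reads in p2 alone. It held 288, 71.9 and 58.6 normalized reads in p2 on day 5, and 295, 0 and 392 on day 6. In p0-1 it was at 0 in 5 libraries and at 1.02, a single read, in the other. All but 1 p2 library thus stood above p0-1. The p2 mean of Hes2 was at least 61.1-fold higher against the limit that a count of 0 allows (adjusted p = 0.000208 for the fitted difference). That bound ran from 47.3-fold without p2 day 6 replicate 3 to 73.3-fold without p2 day 6 replicate 2. The gene lies on chromosome 4 at 152158867 to 152162469 on the plus strand. DESeq2 on the recovered reads did not call Hes2 (adjusted p = 0.905).

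Of the 20 tested genes of the Notch pathway, 3 were higher in p2 at 0.05 and 0 were lower, which are the 3 Delta ligands above. At an unadjusted p below 0.05, 7 were higher and 1 was lower (2.73% and 2% of all genes tested), and the median log2 change was 0.72. The lower one was Jag1, a Notch ligand known from p1 progenitors. It held 1282, 2304 and 2670 in p2 on day 5, and 829, 1903 and 1574 on day 6, against 2182, 3715 and 5128 and then 3839, 4890 and 7181 in p0-1. The ranges of Jag1 overlapped on day 5 and not on day 6 (log2 change -1.36, SE 0.46, unadjusted p = 0.00454, adjusted p = 0.705, limma). The receptor Notch1 had 1435 ± 669 in p2 and 688 ± 319 in p0-1 (adjusted p = 0.499, limma), and Mfng, a glycosyltransferase that modifies Notch receptors, had 994 ± 380 and 249 ± 233 (adjusted p = 0.912, limma). The Notch effectors Hes1 and Hes5 gave log2 differences of 0.03 (95% confidence interval -0.81 to 0.87) and 0.24 (-0.31 to 0.78).

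Of 12 tested genes of the proneural group, Hes6 alone passed 0.05. Proneural factors start neuronal differentiation, whereas Hes6, although counted in this group, belongs to the HES family. With it, 5 had an unadjusted p below 0.05 and the higher level in p2, and 1 had the lower, against 2.73% and 2% of all genes tested. A log2 change above 0 was found for 11 of the 12, against 51.3% of all genes tested, and the median was 1.93. The group was chosen with earlier results of these data known, so these shares are not independent support. Nhlh1, a factor of cells leaving the cycle, held 84.3, 59.7 and 89.5 normalized reads in p2 on day 5, and 108, 141 and 198 on day 6. In p0-1 it held 49, 0 and 0, and then 25.8, 0 and 20.5, so the cell types did not overlap (unadjusted p = 0.000564, adjusted p = 0.254, limma). Neurog1, a proneural factor, had 210 ± 56.3 in p2 and 54.5 ± 59 in p0-1 (SD, n = 6; unadjusted p = 0.00221, adjusted p = 0.506, limma). The member with the lower level in p2 was Nhlh2, at 47.6 ± 93.4 against 190 ± 146 (adjusted p = 0.958, limma).

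Markers of neurons had higher means in p2 as well. All 6 had a log2 change above 0, as did 51.3% of all genes tested, with a median of 1.89, and 3 had an unadjusted p below 0.05 (Elavl4, Elavl3 and Dcx), where 2.73% of all genes tested were higher at that threshold. Summed over the 6 markers, p2 libraries held 1859 to 4953 normalized reads (median 3124) and p0-1 libraries 314 to 2823 (median 1198). Tubb3, which was among the stained proteins, had 817 ± 170 in p2 and 252 ± 175 in p0-1 (unadjusted p = 0.0842, adjusted p = 1, limma). Over both days its cell types did not overlap, but only just, at 527.3 in the lowest p2 and 526.2 in the highest p0-1 library. The part of neuronal cells in the results for the Delta ligands and Hes6 was not tested.

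The remaining genes past 0.05 were higher in p2. Gadd45g, a growth arrest gene expressed in newly committed neuronal precursors, held 7737, 4055 and 2674 normalized reads in p2 on day 5, and 6813, 6640 and 6788 on day 6, and 5785 ± 1964 overall against 2191 ± 1286 in p0-1 (log2 change 1.60, SE 0.31, adjusted p = 0.0135). Btbd17 had 4591 ± 2199 in p2 and 1487 ± 778 in p0-1 (log2 change 1.65, SE 0.32, adjusted p = 0.0135). For both genes p2 was above p0-1 within each day, and without p2 day 5 replicate 1 adjusted p was 0.0942 for each. Celsr3, an atypical cadherin needed for axon tracts, had 444 ± 233 and 65.6 ± 72.2 (log2 change 4.65, SE 0.96, adjusted p = 0.0178), and was at 0 or 1 read in all day 5 p0-1 libraries. Grrp1 had 120 ± 64.6 and 22.3 ± 39.2 (log2 change 4.78, SE 0.94, adjusted p = 0.0143). Celsr3 passed 0.05 in 7 of 12 fits that left out 1 library, with an adjusted p of up to 0.103 without p2 day 5 replicate 2, and Grrp1 in 11, with 0.126 without p0-1 day 6 replicate 2. A further pair lay outside the rule for naming and was chosen after their values were seen. Ccbe1, a secreted protein of lymphatic development, was at 16.5, 121 and 522 in the day 6 p2 libraries and at 0 in the other 9 libraries, and Xkr7 was at 0 in all p0-1 libraries and reached 91.7 in p2.

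**Figure D3:**
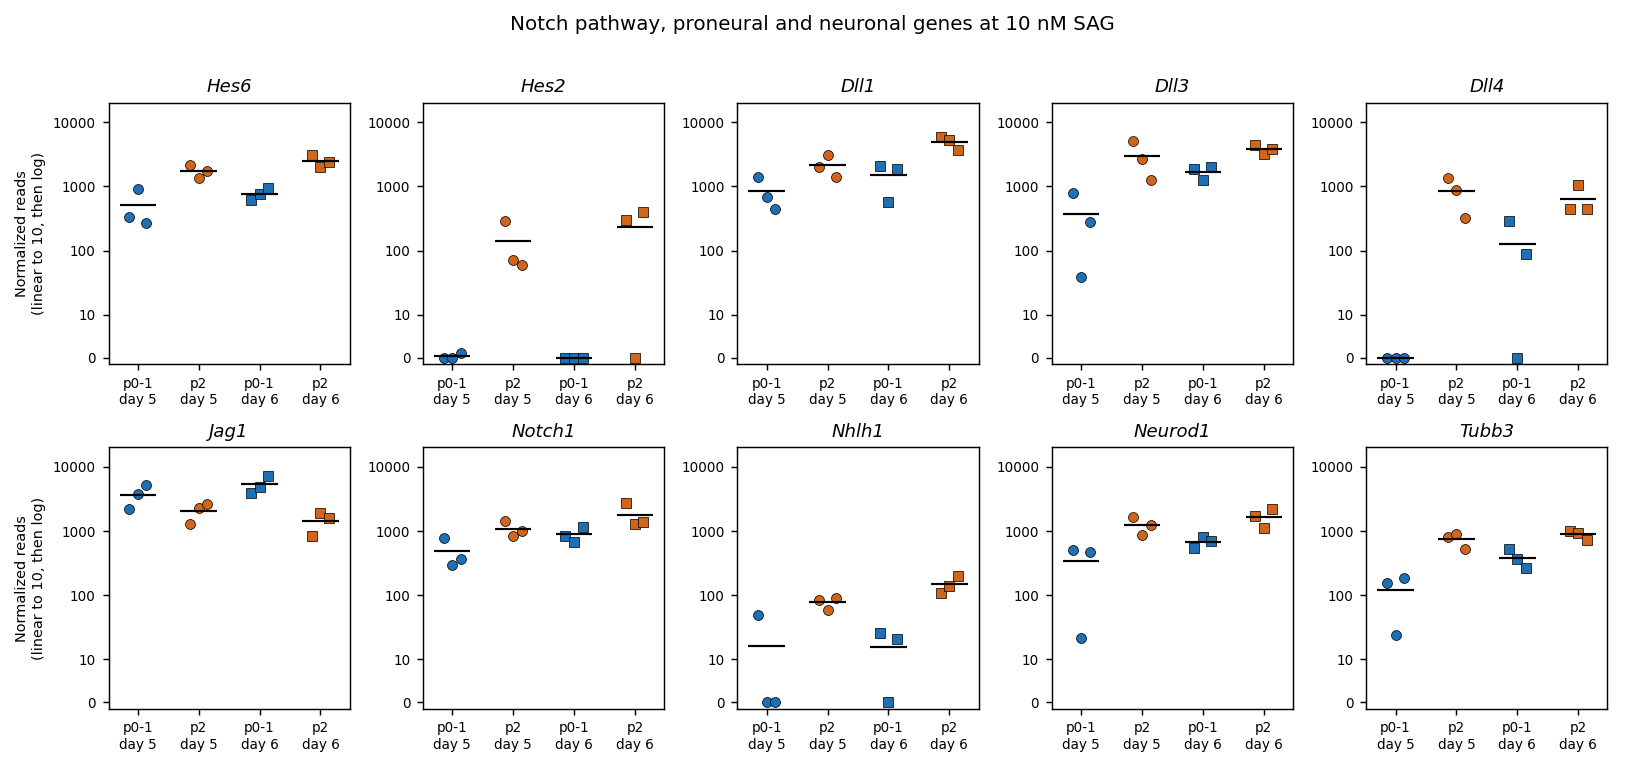
Normalized reads of 10 Notch pathway, proneural and neuronal genes are shown for each library at 10 nM SAG, on an axis that is linear to 10 and logarithmic above. Circles are day 5, squares are day 6, and the short lines are means of 3 libraries. p2 lies above p0-1 on each day for Hes6, the 3 Delta ligands, Nhlh1 and Tubb3, and Jag1 shows the lower mean in p2.

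The feedback targets of the Shh pathway are read as its output, and they were compared although both cell types had received the same agonist concentration. Of the 4 tested, 0 passed 0.05 and 2 had an unadjusted p below 0.05 with the higher level in p2 (2.73% of all genes tested), with a median log2 change of 1.91. Gli1, a transcription factor induced by the pathway, held 610, 646 and 436 normalized reads in p2 on day 5, and 329, 620 and 195 on day 6. In p0-1 it held 233, 4.36 and 142 on day 5, and 296, 104 and 181 on day 6. The cell types were apart on day 5 and overlapped on day 6 (log2 change 2.12, SE 0.64, unadjusted p = 0.00169, adjusted p = 0.438, limma). Hhip, a membrane protein that binds and sequesters Shh, had 975 ± 674 in p2 and 98.3 ± 121 in p0-1 (unadjusted p = 0.00212, adjusted p = 0.503, limma). Ptch1, the receptor that restrains Smoothened, had 1809 ± 569 and 1300 ± 591, with a 95% confidence interval of the log2 difference from -0.02 to 1.07. Of 19 tested genes that carry the signal, 2 were lower in p2 at an unadjusted p below 0.05 (2% of all genes tested) and 0 higher. They were Kif3a, a motor subunit needed for cilia, and Lrp2, a co-receptor for Shh (adjusted p = 0.79 and 0.959, limma).

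No other gene group had a member past 0.05. For 14 retinoic acid genes, 46 genes of the Wnt, BMP and FGF pathways, 23 cell cycle genes and 21 Hox genes, 0 had an unadjusted p below 0.05 (limma). Their median log2 changes were -0.16, -0.27, -0.02 and 0.19. Among 55 adhesion and guidance genes, 2 had the higher and 4 the lower level in p2 at an unadjusted p below 0.05, against 2.73% and 2% of all genes tested, with a median of 0.17. The members with the lower level were Epha7, Flrt3, Sema5a and Cdh3, at log2 changes of -1.11, -2.37, -3.37 and -2.62 and adjusted p-values of 0.991, 1, 1 and 1 (limma). Pcdh8, a protocadherin, had 1650 ± 269 in p2 and 396 ± 330 in p0-1 without overlap (adjusted p = 0.797, limma). Of the markers of other cells, none tested for mesoderm, neural crest, floor plate, pluripotent cells or fibroblasts had an unadjusted p below 0.05 (limma), and no endoderm marker passed the filter on low values. Summed fibroblast markers ranged from 1.06 to 477 normalized reads in p2 and from 6.83 to 312 in p0-1. The ES cells had been kept on fibroblast feeders before differentiation.

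**Figure D4:**
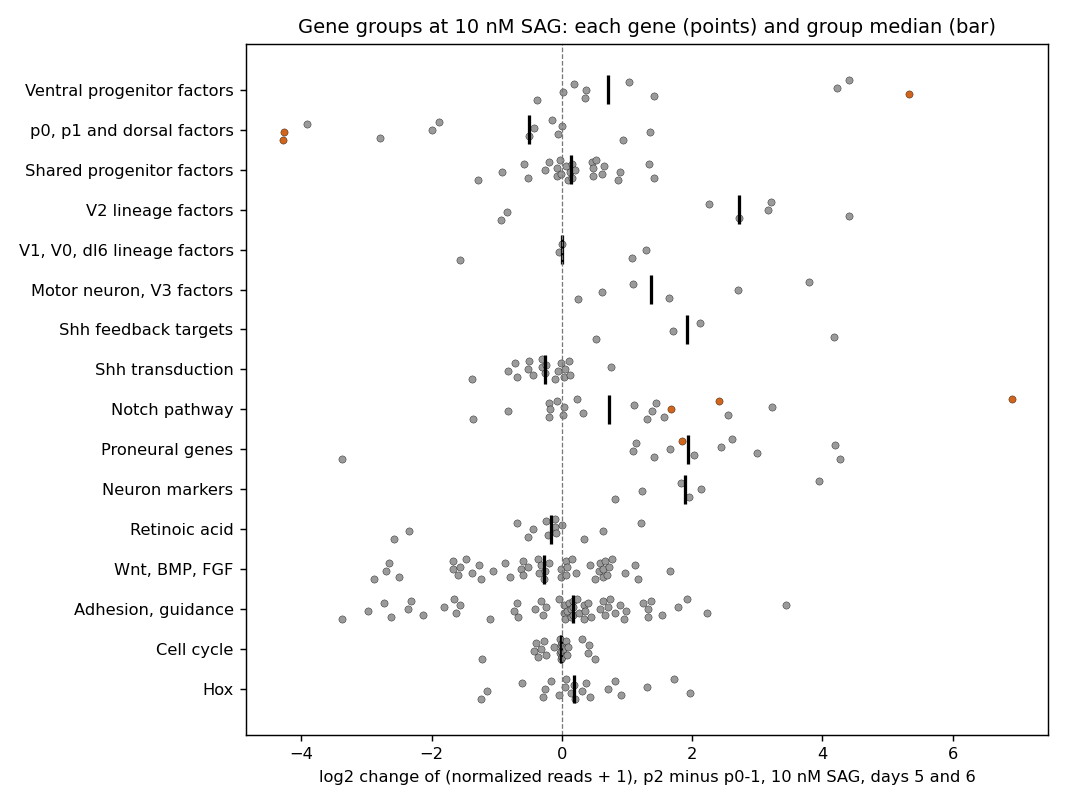
For each gene group, points are the log2 changes of its tested genes, p2 minus p0-1 at 10 nM SAG, and the bar is the median of the group. Orange points are genes at an adjusted p below 0.05. The proneural and V2 groups have medians of 1.93 and 2.72, the p0, p1 and dorsal group has a median of -0.51, and the cell cycle group is centered at -0.02.

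The difference between the cell types was then compared between days. For 0 of 13964 genes did it differ between day 5 and day 6 at an adjusted p below 0.01 or below 0.05 (0% called), while 472 had an unadjusted p below 0.05 (3.38%). edgeR gave 0 and DESeq2 gave 417 genes at the same threshold. Of the 14 genes past 0.05 over both days, 13 had the same sign on each day, Ccbe1 being at 0 in all 6 libraries on day 5. The log2 difference of Celsr3 was 7.33 on day 5 and 1.98 on day 6 (unadjusted p = 0.00736 for the difference, adjusted p = 1, limma), that of Dll3 was 3.64 and 1.19 (unadjusted p = 0.0155, adjusted p = 1, limma), and that of Dll1 was 1.46 and 1.88 (unadjusted p = 0.564, limma). Tested on day 6 alone, 3 genes were called (0.0215%), Nkx6-1, Ccbe1 and G6pdx, the last of these lower in p2 and named after its value was seen. Tested on day 5 alone, 0 were called (580 at an unadjusted p below 0.05, 4.15%, limma), and 10 passed 0.05 (0.0716%), all with the higher level in p2.

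On day 4 the series held 1 p2 library and 3 p0-1 libraries at 10 nM, and no test was made. Nkx6-1 was at 143 normalized reads in p2 and at 23.7, 20.9 and 52.4 in p0-1. Dbx1 was at 0 in p2 and at 180, 98.3 and 56.1 in p0-1, far below its level on the later days. Hes6 was at 446 in the p2 library and at 491, 393 and 550 in p0-1, so the day 4 value lay within the p0-1 range.

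Finally, the same cell types were compared where they had formed at different SAG concentrations, p2 at 100 nM and p0-1 at 0 nM, in libraries that the 10 nM comparison did not use. There, cell type and concentration cannot be told apart. In that comparison 27 genes were called higher (0.193%) and 19 lower (0.136%), 46 in all (0.329%), against 3 at 10 nM. Of the 14 genes past 0.05 at 10 nM, 11 had the same sign there, and 5 were called there: Nkx6-1, Grrp1, Btbd17, Dbx1 and Prdm16. Hes2, Celsr3 and Ccbe1 did not have the same sign, and none of the Delta ligands was called. Of the 46 genes, 38 had the same sign at 10 nM, 17 also had an unadjusted p below 0.05 at 10 nM, where 4.73% of all genes did, and all 46 had the smaller fitted change at 10 nM. These 46 were chosen for a large change at the other concentrations, which by itself favors the smaller value at 10 nM. The difference between the comparisons was called for 2 genes, Pax3 and Ccnd2 (0.0143%), and 12 passed 0.05 (0.0859%).

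Dbx1 was among the 12. In p0-1 cells it had 2004 ± 755 normalized reads at 10 nM and 2522 ± 985 at 0 nM, while in p2 cells it had 195 ± 154 at 10 nM and 0.778 ± 1.09 at 100 nM (SD, n = 6). The p2 libraries of 10 nM thus held Dbx1 RNA that those of 100 nM nearly lacked. Whether p0-1 cells within the sorted p2 samples carried it was not tested. The log2 change was -4.29 at 10 nM and -10.55 at the other concentrations (difference 6.26, SE 1.28, adjusted p = 0.0231). Ptch1 had levels of 692 ± 342 in p0-1 at 0 nM, 1300 ± 591 in p0-1 at 10 nM, 1809 ± 569 in p2 at 10 nM and 3832 ± 1857 in p2 at 100 nM. Its change of 2.49 at the other concentrations (SE 0.27, adjusted p = 1.72e-08) was larger than that of 0.52 at 10 nM (difference -1.96, SE 0.38, adjusted p = 0.0163). Gli1 had the same order of means, 40.7 ± 32.3, 160 ± 102, 473 ± 184 and 884 ± 191. For Gli1 the difference between the comparisons had an adjusted p of 0.278 (limma). All 4 Shh feedback targets were called at the other concentrations, and 0 of 4 at 10 nM.

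Pax3, a factor of dorsal progenitors, was at 0 in all 12 libraries at 10 nM, p0-1 included. It held 133, 149 and 331 normalized reads in p0-1 at 0 nM on day 5, and 762, 283 and 350 on day 6, and was at 0 in p2 at 100 nM. No difference was measured at 10 nM and a log2 change of -8.14 was found at the other concentrations (difference 8.14, SE 1.06, adjusted p = 1.15e-05). Ccnd2, a G1 cyclin, had levels of 8930 ± 1165 in p0-1 at 0 nM and 20441 ± 5874 in p2 at 100 nM, a log2 change of 1.15 (adjusted p = 2.78e-07). At 10 nM it had 17172 in p0-1 and 17391 in p2, with a log2 difference of 0.00 (difference between the comparisons -1.16, SE 0.20, adjusted p = 0.00383).

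Hes2 went the other way. It was at 0 in all 6 p2 libraries at 100 nM, as well as in the day 4 p2 library at 10 nM, and was called at 10 nM alone (difference between the comparisons 6.17, SE 1.28, adjusted p = 0.025). Hes6 had 1528 ± 729 in p2 at 100 nM and 1120 ± 413 in p0-1 at 0 nM, a log2 change of 0.43 (adjusted p = 0.667), but the difference from the change of 1.84 at 10 nM did not pass (1.42, SE 0.42, adjusted p = 0.365). Btbd17 had nearly the same change in each comparison, 1.65 at 10 nM and 2.06 at the other concentrations. Jag1 also had like values, -1.36 and -1.42, neither past 0.05. The Delta ligands overlapped between p2 at 100 nM and p0-1 at 0 nM. Dll1 held 1043 to 3635 normalized reads in p2 and 497 to 3681 in p0-1, and Dll3 held 898 to 4725 and 363 to 1688. Dll4 held 28.4 to 1646 and 0 to 228 (log2 change 3.68, adjusted p = 0.266, limma). Celsr3 also overlapped, at 98.3 to 280 and 72.7 to 386.

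**Figure D5:**
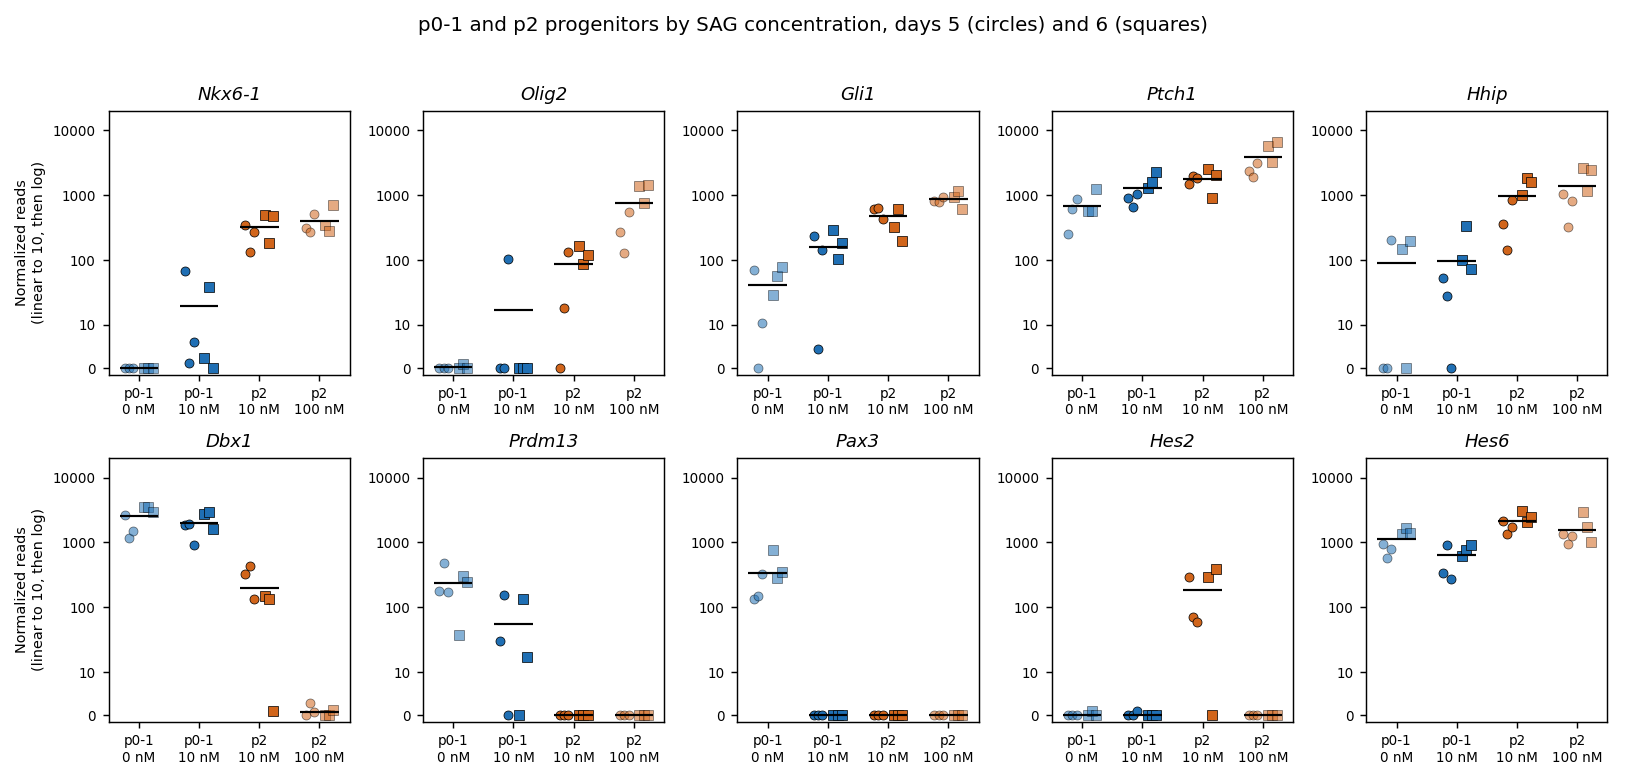
Normalized reads of 10 genes are shown per library for p0-1 at 0 and 10 nM and p2 at 10 and 100 nM SAG, on an axis that is linear to 10 and logarithmic above. Circles are day 5, squares are day 6, and lines are means of 6 libraries. The means of Gli1 and Ptch1 increase from left to right, Dbx1 is intermediate in p2 at 10 nM, Pax3 is present only in p0-1 at 0 nM, and Hes2 is above single reads only in p2 at 10 nM.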

How the data were processed

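CaTS-RNA-seq libraries (RNA of fixed, stained and sorted cells, SMART-Seq HT and Nextera XT) were aligned by the authors to mm10 with ERCC sequences using STAR, genes were counted with featureCounts with duplicate reads ignored, and libraries that failed quality control were removed. The strand setting of the counting was not given in the sources used here. The deposited table holds a signal of size-factor normalized counts for 25239 genes and 65 libraries. Whole reads were recovered from the steps of the values: 100% of 834400 values above 0 were whole within 0.001. A deposited annotation gave gene coordinates, in another unit (base positions).

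Genes with a mean of at least 10 over all libraries (13964) were tested on log2(value + 1) with limma 3.58.1 (R 4.3.3), with a variance trend and 25 group means over all 65 libraries (40 residual degrees of freedom), so that day is a block. Log2 changes of genes near 0 in a cell type depend on the pseudocount. The call required more than a 2-fold change with p, adjusted by Benjamini-Hochberg, below 0.01. edgeR 4.0.16 and DESeq2 1.42.0 on the recovered reads were alternatives. They left out 1 library, of another cell type, whose read unit could not be settled. Further alternatives changed the pseudocount, filter, scaling, weights, libraries and block. Only the limma test of the 10 nM comparison was tried on simulated data with known changes. This trial did not cover edgeR, DESeq2, the other comparisons or changes in genes near 0 reads. It therefore cannot decide between the numbers of genes called by limma, edgeR and DESeq2. Depth was 7808243 to 12383601 reads in the 12 libraries. Molecules carried no identifiers, so limits from counts cover counting error only.

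Besides members of gene lists, the genes named were those called or past an adjusted p of 0.05 with a mean of at least 50 in the higher cell type and the same sign on both days. The compared libraries and the gene lists were chosen with earlier results of these data known.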

Additional observations from a re-analysis of the deposited data

Results flagged for a closer look

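For 2 genes the change between p2 and p0-1 differed between 10 nM and the comparison of p2 at 100 nM with p0-1 at 0 nM. This difference was tested by limma on all 65 libraries. The second comparison mixes cell type with concentration, so a dependence of the cell type difference on concentration was not tested. For Ccnd2 the log2 change at 10 nM minus that at the other concentrations (p2 at 100 nM, p0-1 at 0 nM) was -1.157 (SE 0.20, adjusted p = 0.00383). edgeR (adjusted p = 0.00795) and DESeq2 (adjusted p = 1.63e-06) gave the same call. It was not called with array weights (adjusted p = 0.0352), at a mean of at least 100 (adjusted p = 0.0136) or in 6 of 24 fits that left out 1 library, where adjusted p reached 0.0213 without p2 at 100 nM day 6 replicate 3. For Pax3 the value was 8.142 (SE 1.06, adjusted p = 1.15e-05). Pax3 was at 0 in all 18 libraries of these groups other than the 6 of p0-1 at 0 nM, and edgeR (adjusted p = 1) and DESeq2 (adjusted p = 0.828) did not call it.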

How the results depend on the processing

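At 10 nM, where 3 genes were called, an adjusted p below 0.05 gave 14, a pseudocount of 10 gave 8, no filter on low values 5, quantile normalization 6, array weights 6, day 5 alone 0, edgeR 1 and DESeq2 430 (238 higher and 192 lower). Leaving out 1 library at a time gave 3 to 8 genes, with 8 without p2 day 5 replicate 3, 6 without p0-1 day 5 replicate 1, and 5 without p0-1 day 6 replicate 1, p0-1 day 6 replicate 3 or p2 day 6 replicate 1; Nkx6-1, Hes6 and Hes2 were called in each. For the difference between days, 0 genes became 417 with DESeq2, and 0 to 2 when 1 library was left out (2 without p2 day 6 replicate 1, 1 without p0-1 day 6 replicate 3). For p2 at 100 nM against p0-1 at 0 nM, 46 genes became 122 at an adjusted p below 0.05, 15 with the compared libraries alone, 30 with array weights, 27 with edgeR and 748 with DESeq2, and 34 to 120 when 1 library was left out (120 without p2 day 6 replicate 2). For the difference between this comparison and that at 10 nM, 2 genes became 12 at an adjusted p below 0.05 and 5 without a filter. They became 0 at a mean of at least 100, 1 with array weights and 525 with DESeq2. Leaving out 1 library gave 1 to 23 (23 without p2 at 100 nM day 6 replicate 2). Same-numbered p2 and p0-1 libraries correlated at 0.0151 to 0.0632 in their deviations from group means, none over 0.1, so the numbers were not taken to pair them. Different-numbered pairs lay lower, at -0.0602 to 0.00722, so every library correlated best with its own number. For accessibility the paper describes comparing cell types of a single dish. Neither the paper nor the labels tie replicate numbers to a shared culture. Pairing of the libraries thus remains possible and was not part of the main test. With the replicate number as a block, the comparisons gave 7 genes at 10 nM (Gadd45g, Btbd17, Dll3 and Ccbe1 besides the 3), 71 at 100 against 0 nM and 9 for their difference, and with the block in the 12 libraries alone 0 at 10 nM, where residual degrees of freedom are fewer. The cause of the other changes was not tested. Of the 49 gene results recomputed under the alternatives, 0 reversed direction. These genes had been chosen by the main fit, and the alternatives used mostly the same libraries, which by itself favors an unchanged direction. Across its alternatives adjusted p ran from 7.53e-10 to 0.613 for Nkx6-1, from 2.07e-07 to 0.611 for Hes6, from 5.16e-05 to 0.611 for Dbx1, which passed 0.05 in 12 of 24, and from 0.00054 to 0.815 for Prdm16, which passed in 8 of 23. Depth limits statements on genes near 0 reads, such as Prdm16 and Hes2.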
